A study of Homo sapiens with 8 samples.

Results

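Proteases that cut or release the extracellular matrix, and the proteins that hold them in check, were followed in 2 triple-negative breast cancer (TNBC) cell lines exposed to Acetalax. The set had 10 genes of 55679 gene identifiers in the count table: the metalloproteinases MMP1, MMP14 and ADAMTS1, the tissue inhibitors TIMP1, TIMP2 and TIMP3, the urokinase PLAU and its receptor PLAUR, the serine protease inhibitor TFPI2 and the carboxypeptidase CPA4. Each was matched by its symbol to 1 identifier. The genes were chosen by their CPM (counts scaled to the library's total on genes) and ratios in these same libraries, so levels and differences are given as a description and carry no test.

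The libraries were polyA-selected RNA of MDA-MB468 and BT549, both established TNBC lines, 1 library per condition and 8 in all. Parental cells were compared with CE cells, which came from the same line by chronic exposure to rising Acetalax, up to 40 μmol/L, and had been free of the drug for 2 weeks. Cells of both states were sequenced untreated (control) and 6 hours into treatment with 1 μmol/L Acetalax. Acetalax (oxyphenisatin acetate) is a laxative that causes oncosis, a death with swelling, in sensitive TNBC cells, and CE cells are resistant derivatives. The CE cells of each line were 1 derivative of it. With 1 library per condition no difference below has a replicate check, and the 95% intervals cover counting error only.

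The matrix metalloproteinases (MMPs) are zinc enzymes that cleave collagens and other matrix proteins. MMP14 sits in the plasma membrane, cleaves collagen at the cell surface and activates the secreted gelatinase MMP2 together with TIMP2. The TIMPs block MMPs by binding at the catalytic zinc, and TIMP3 is the TIMP that stays bound to the matrix and also inhibits ADAM and ADAMTS enzymes. Urokinase, held on the cell surface by PLAUR, turns plasminogen into plasmin. TFPI2 is a Kunitz-type inhibitor of plasmin and other serine proteases found in the matrix. CPA4 removes amino acids from the carboxyl end of peptides, and ADAMTS1 cleaves proteoglycans such as versican and aggrecan.

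The libraries held between 42261122 and 54241728 counts on genes, so that a gene at 1 CPM had from 42.3 to 54.2 counts. The lines carried their own markers: all 7 epithelial markers had at least 1 CPM in each MDA-MB468 library, and all 7 mesenchymal markers did in each BT549 library. Of the 3 triple-negative receptors, ESR1 did not exceed 5.15 CPM and PGR did not exceed 0.63 CPM. ERBB2 RNA was present in each library, at 41.2 to 95.2 CPM. Differences are of log2(CPM + 0.5), and a gene counted as past the fold where this difference was at least 1 in size. Values over all genes are for the 11135 whose mean over the 8 libraries reached 5 CPM. Their median difference was -0.17 for Acetalax in CE BT549 and between -0.10 and 0.02 in the other comparisons. With scaling by the trimmed mean of M values (TMM) the former was 0.02, so differences for Acetalax in CE BT549 stand beside a shift of that size.

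The promoters of the set differ in base composition, and 4 are shown. They are that of TIMP3, which has the largest difference below, and those of CPA4, TFPI2 and PLAUR. The last 3 hold the letters TGANTCA and were the genes past the fold upward with Acetalax in both states of MDA-MB468. The sequences run 5′ to 3′ from 250 bases before to 50 bases after the start, come from the RefSeq table for GRCh38.p14, and were each found as a single exact match in GRCh37 (hg19). Capitals mark TGANTCA (a loose form of the AP-1 site TGA(C/G)TCA, with any middle base), TATAAA (the TATA box) and GGGCGG (the GC box) on either strand. In the promoter of CPA4 the plus-strand and minus-strand TATAAA overlap. The windows are chr7:129932751-129933050 on the plus strand for CPA4, chr7:93520016-93520315 on the minus strand for TFPI2, chr19:44174272-44174571 on the minus strand for PLAUR and chr22:33197441-33197740 on the plus strand for TIMP3.
CPA4: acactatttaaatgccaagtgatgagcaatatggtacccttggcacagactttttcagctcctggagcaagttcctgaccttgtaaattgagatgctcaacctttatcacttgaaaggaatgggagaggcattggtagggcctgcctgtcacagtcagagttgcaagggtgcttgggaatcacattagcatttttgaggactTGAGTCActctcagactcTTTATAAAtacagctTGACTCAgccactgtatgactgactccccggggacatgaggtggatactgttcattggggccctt
TFPI2: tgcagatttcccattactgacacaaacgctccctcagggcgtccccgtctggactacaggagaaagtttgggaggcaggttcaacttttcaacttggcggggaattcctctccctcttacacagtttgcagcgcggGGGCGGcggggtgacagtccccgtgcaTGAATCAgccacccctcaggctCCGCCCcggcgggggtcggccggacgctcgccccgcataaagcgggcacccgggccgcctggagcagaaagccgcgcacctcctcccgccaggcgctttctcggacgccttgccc
PLAUR: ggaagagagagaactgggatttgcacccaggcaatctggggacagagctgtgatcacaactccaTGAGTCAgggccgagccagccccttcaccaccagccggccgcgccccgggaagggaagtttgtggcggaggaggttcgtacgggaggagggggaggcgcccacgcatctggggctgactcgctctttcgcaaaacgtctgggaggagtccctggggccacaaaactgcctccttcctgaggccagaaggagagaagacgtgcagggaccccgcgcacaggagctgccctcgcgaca
TIMP3: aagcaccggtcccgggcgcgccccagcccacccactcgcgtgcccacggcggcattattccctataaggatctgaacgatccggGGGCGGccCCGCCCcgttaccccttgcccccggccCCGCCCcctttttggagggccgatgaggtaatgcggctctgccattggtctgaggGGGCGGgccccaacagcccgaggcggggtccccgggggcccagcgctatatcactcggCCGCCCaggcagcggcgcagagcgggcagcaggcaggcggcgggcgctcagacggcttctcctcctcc

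A promoter entry was matched for 7 of the 10 genes, and TGANTCA was found in those of CPA4, TFPI2 and PLAUR. MMP1, TIMP2 and ADAMTS1 had no entry and were not searched, although ADAMTS1 was also past the fold upward with Acetalax. Any link between these letters and the drug response was not tested. CPA4 held it at -48 (TGAGTCA) and -15 (TGACTCA), TFPI2 at -87 (TGAATCA) and PLAUR at -186 (TGAGTCA), counted from the start. The TFPI2 match, with A in the middle, was of the loose form only. Of all 35093 promoters in the table, 7.705% held TGANTCA, 11.535% TATAAA and 44.949% GGGCGG. CPA4 had a TATAAA, and its window contained 1 CpG, where 3.96% of promoters had fewer. TIMP3 was at the other end of the set, with 31 CpG, 5 GC boxes and 72.67% G and C, against medians of 14 CpG and 58.67% over all promoters. TFPI2 had 26 CpG, PLAUR 18, TIMP1 16 and MMP14 10. PLAU had promoters of both kinds, with 5 CpG in the upstream and 28 in the downstream window. A match is a description of letters and not a site shown to be bound.

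**Figure D1:**
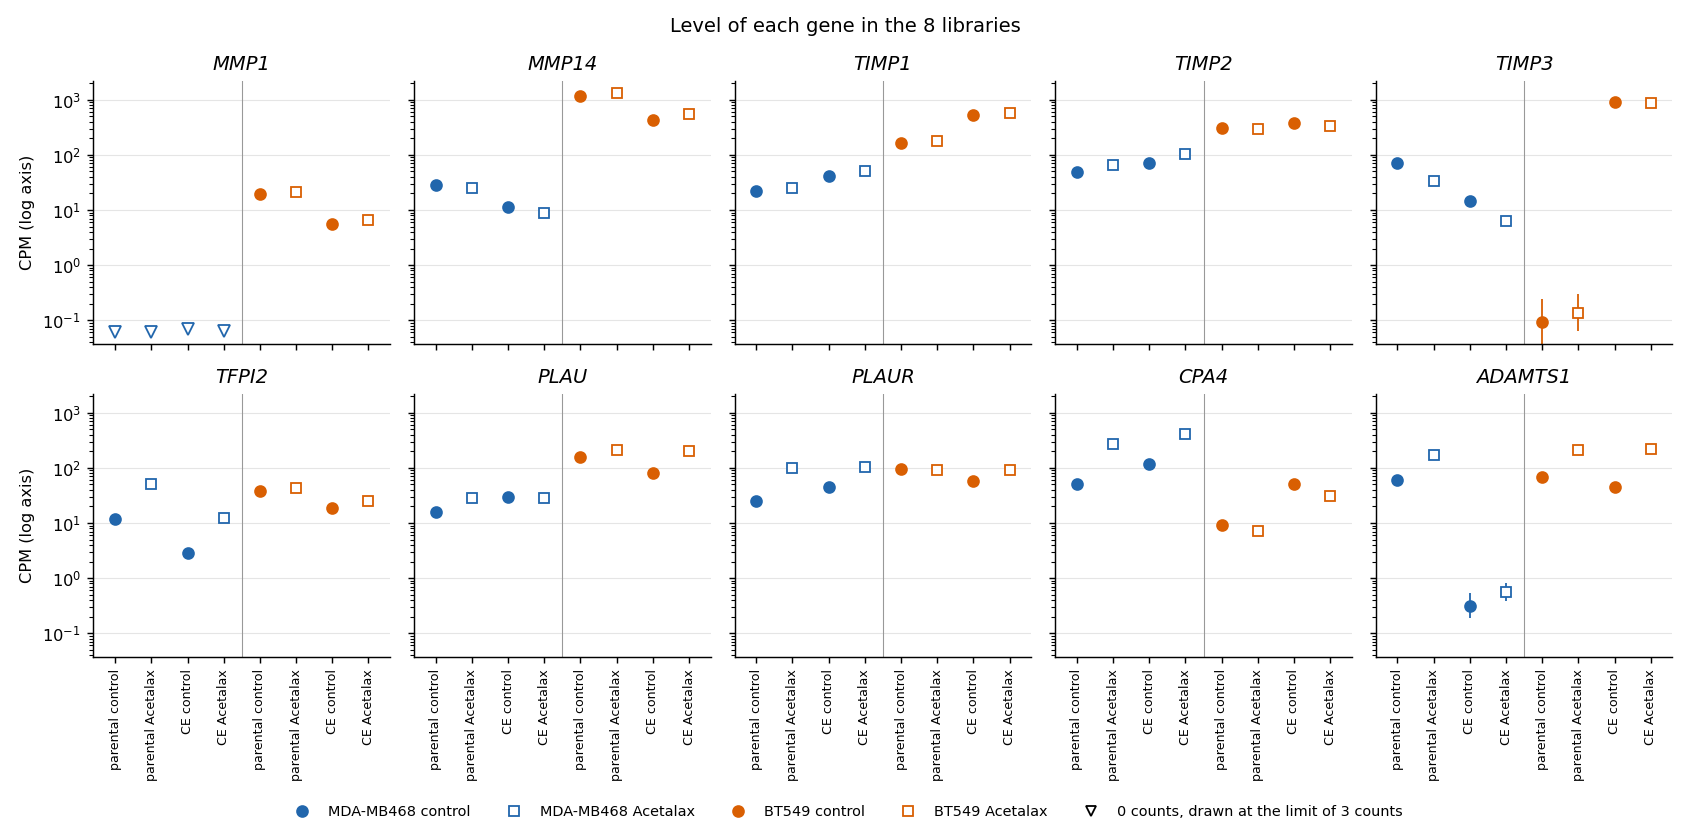
Level of each of the 10 genes in the 8 libraries, in CPM on a log axis shared by all panels, with MDA-MB468 in blue left of the line, BT549 in orange right of it, filled circles for control, open squares for Acetalax and bars for the 95% counting interval. Triangles mark 0 counts, drawn at the limit of 3 counts. TIMP3 in BT549 moves from 0.0946 CPM in parental to 928 CPM in CE control cells, and ADAMTS1 in MDA-MB468 from 60.6 to 0.317 CPM.

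The collagenase MMP1 (chr11:102660651-102668891, minus strand) was counted in BT549 and not in MDA-MB468. It had 0 counts in all 4 MDA-MB468 libraries, which allows a level of up to 0.0680 CPM. In BT549 it had 19.2 CPM in parental control, 21.0 in parental Acetalax, 5.60 in CE control and 6.72 in CE Acetalax cells. The CE libraries were thus both below the parental libraries, and the drug moved the level little in either. Against the limit of 3 counts, parental BT549 was 311-fold higher than parental MDA-MB468, and the exact 95% lower limit of the ratio was 252. The CE minus parental difference in BT549 was -1.69 (95% interval -1.87 to -1.51), or 3.42-fold lower, and -1.57 with Acetalax. WTAPP1, a pseudogene on the opposite strand that shares 223 exon bases with MMP1, had at most 1 count in any library.

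MMP14, the membrane-type collagenase (chr14:23305766-23318236, plus strand), was lower past the fold in CE cells of both lines. Its level in MDA-MB468 was 28.4 CPM in parental control, 25.2 in parental Acetalax, 11.2 in CE control and 8.94 in CE Acetalax cells. In BT549 the same libraries had 1164, 1329, 435 and 562 CPM. In each line both CE libraries were below both parental libraries. The difference was -1.31 in MDA-MB468 (-1.45 to -1.17), a 2.54-fold lower level. BT549 gave -1.42 (-1.44 to -1.40), a 2.68-fold lower level. The lines differed more from each other than the states did: BT549 had 41.0-fold more MMP14 than MDA-MB468 among parental cells and 38.9-fold more among CE cells. Per length (FPKM, from merged exons), MMP14 ranked 84 of the 26307 genes above 0 in parental BT549 and 368 of 27740 in CE BT549. Acetalax for 6 hours changed it by -0.17 and -0.31 in parental and CE MDA-MB468 and by 0.19 and 0.37 in parental and CE BT549, so the lines moved in opposite directions and none passed the fold.

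TIMP1, the soluble inhibitor of most MMPs (chrX:47441712-47446188, plus strand), was higher in CE cells of both lines. MDA-MB468 had 21.7 CPM in parental control, 24.6 in parental Acetalax, 41.8 in CE control and 50.003 in CE Acetalax cells. BT549 had 164, 177, 536 and 575 CPM in the same order. Both CE libraries were above both parental libraries in each line. The difference was 0.93 (0.83 to 1.04) in MDA-MB468, just under the fold, and 1.71 (1.67 to 1.75) in BT549. Acetalax added little, from 0.10 to 0.26 over the 4 backgrounds. SYN1, whose region on the opposite strand contains TIMP1 without sharing exons, had from 14 to 149 counts.

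TIMP2, which both inhibits MMP2 and helps MMP14 to activate it (chr17:76849059-76921469, minus strand), moved in the same direction by less. Its levels were 48.6, 65.7, 71.6 and 104 CPM in parental control, parental Acetalax, CE control and CE Acetalax MDA-MB468, and 308, 294, 377 and 336 CPM in BT549. The CE minus parental difference was 0.55 (0.48 to 0.63) in MDA-MB468 and 0.29 (0.26 to 0.32) in BT549, neither past the fold. With Acetalax TIMP2 was higher in MDA-MB468, by 0.43 in parental and 0.54 in CE cells. In BT549 the values were -0.07 and -0.17, and the latter became 0.05 with TMM scaling.

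TIMP3, the matrix-bound inhibitor (chr22:33197687-33259030, plus strand), moved in opposite directions in the CE cells of the 2 lines. In MDA-MB468 it had 70.1 CPM in parental control, 34.0 in parental Acetalax, 14.4 in CE control and 6.22 in CE Acetalax cells. In BT549 it had 0.0946 and 0.138 CPM in the parental libraries, from 4 and 6 counts, and 928 and 872 CPM in the CE libraries, from 50357 and 44087 counts. The parental BT549 cells were therefore close to the limit of detection, while CE BT549 cells had more TIMP3 than any MDA-MB468 library. The CE minus parental difference was -2.25 (-2.37 to -2.13) in MDA-MB468, a 4.88-fold lower level. In BT549 it was 10.61 (10.38 to 10.83), with a CPM ratio of 9809 whose exact 95% interval ran from 3831 to 36001. This was the highest of the 11135 differences in that pair of libraries, and TIMP3 was again the highest among Acetalax-treated BT549 cells. Parental MDA-MB468 had 741-fold more TIMP3 than parental BT549, whose 4 counts put the inverse ratio between 0.000368 and 0.00346 (exact interval). CE BT549 had 64.7-fold more than CE MDA-MB468. SYN3, whose region on the opposite strand contains TIMP3, had 4 counts in each CE BT549 library and at most 93 in any library. TIMP3 was lower with Acetalax in MDA-MB468, by similar steps in parental cells (-1.03, interval -1.12 to -0.95) and in CE cells (-1.14, interval -1.33 to -0.96). The first was under the fold with TMM scaling (-0.96) and with size factors (-0.96), and both were on log2(FPKM + 1) (-0.95 and -0.81). In CE BT549 it was -0.09, which became 0.12 with TMM scaling.

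Genes that are also used as markers of fibroblasts were, as TIMP3 was, higher in CE than in parental control BT549 cells. The 6 fibroblast markers summed to between 1994 and 5802 CPM over the BT549 libraries. Of these, COL1A2 was at 1045 CPM in parental and 4505 CPM in CE control cells and COL1A1 at 947 and 1291, while DCN and LUM, at 0.0473 and 0 CPM in parental control cells, reached 1.42 and 2.12 CPM. The 7 mesenchymal markers were divided: SPARC was at 439 and 3447 CPM, TWIST1 at 51.9 and 140.1 and SNAI2 at 15.4 and 25.7, whereas VIM was at 1327 and 864, FN1 at 1629 and 592.5, CDH2 at 223 and 109.5 and ZEB1 at 86.1 and 58.5. Of the 7 epithelial markers, KRT8 was at 1.25 and 34.4 CPM and KRT18 at 6.67 and 47.9, and the others did not exceed 4.15. With Acetalax the fibroblast markers COL1A1 (1089 and 1062 CPM) and PDGFRB (0.184 and 0.0791 CPM) were not higher in CE than in parental BT549 cells. Leukocyte markers summed to at most 3.52 CPM and endothelial markers to at most 0.148 CPM in BT549. The part of these genes' cells or programmes in the TIMP3 difference was not tested, and in bulk RNA a change in the share of cells of a type and a change of RNA per cell cannot be told apart.

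Per length, the TIMPs and MMP14 stood in the opposite order in parental and CE BT549. In parental control BT549 the FPKM of MMP14 was 252 and the 3 TIMPs summed to 163, whereas in CE control cells MMP14 was at 94.1 and the TIMPs at 633. The TIMP sum over MMP14 was thus 0.647 in parental and 6.73 in CE control cells, and 0.591 and 5.27 with Acetalax. In MDA-MB468 the TIMPs were above MMP14 in each library, with a sum over MMP14 of 6.20 in parental control, 6.43 in parental Acetalax, 18.04 in CE control and 27.3 in CE Acetalax cells. The ratio was therefore higher in CE cells of both lines. Lengths of the longest transcript gave 0.774 and 7.04 for parental and CE control BT549 and 6.56 and 21.0 for MDA-MB468.

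The makeup of the TIMP sum differed between the states in each line. TIMP3 made up 40.1% of it in parental control MDA-MB468 and 7.17% in CE control cells, while TIMP1 went from 39.4% to 66.35%. In BT549 TIMP3 went from 0.0127% to 31.9%, and TIMP2 from 30.4% to 9.59%. MMP14 over TIMP2, the pair that acts on MMP2, was 5.08 in parental control and 1.55 in CE control BT549, and 0.784 and 0.209 in MDA-MB468. These are ratios of RNA levels and not of protein or of activity. The sum counts the TIMPs alike, with TIMP1 at 69.55% of it in parental and 58.5% in CE control BT549. How strongly each TIMP acts on MMP14 was not measured, so the sum is not a measure of MMP14 inhibition.

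**Figure D2:**
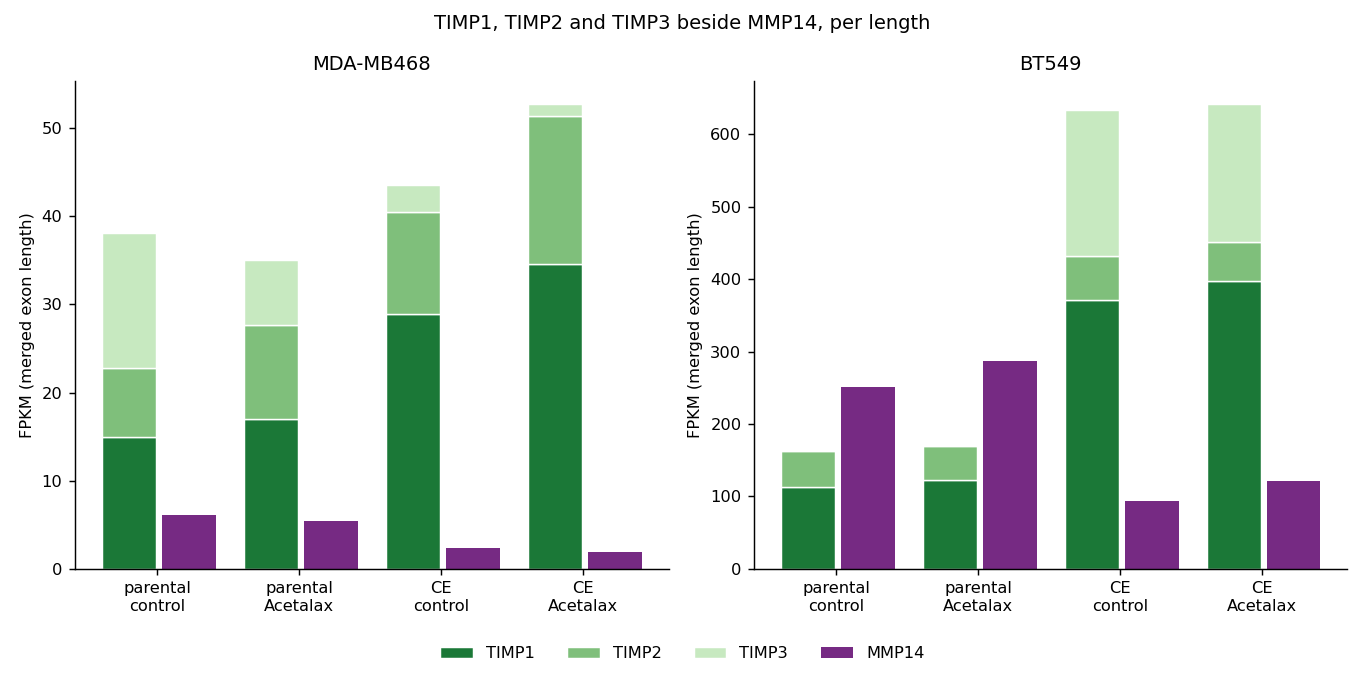
FPKM from merged exon lengths of TIMP1, TIMP2 and TIMP3, stacked in green, beside MMP14 in purple, for the 4 libraries of MDA-MB468 and the 4 of BT549, on linear axes that start at 0 and differ between the panels. In BT549 the MMP14 bar is the taller in parental cells (252 against 163 in control) and the shorter in CE cells (94.1 against 633).

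PLAU, the urokinase (chr10:75668935-75677255, plus strand), differed between CE and parental control cells in opposite directions in the lines. In MDA-MB468 it had 15.6 CPM in parental control, 28.0 in parental Acetalax, 29.9 in CE control and 29.0 in CE Acetalax cells. In BT549 it had 155, 212, 80.2 and 199 CPM. The parental control library was the low library in MDA-MB468, and the CE control library was the low library in BT549. CE minus parental was 0.92 (0.79 to 1.04) in MDA-MB468 and -0.94 (-0.997 to -0.886) in BT549. After Acetalax it was 0.05 (-0.06 to 0.15) and -0.09 (-0.13 to -0.05), so that CE and parental cells of a line had nearly the same level. The BT549 value turned to 0.14 with TMM scaling, outside that interval. C10orf55, a noncoding gene on the opposite strand that shares 915 exon bases with PLAU, had from 14 to 76 counts.

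Its receptor PLAUR (chr19:44150247-44174699, minus strand) showed the same arrangement. Levels in MDA-MB468 were 24.7 CPM in parental control, 101 in parental Acetalax, 44.2 in CE control and 102 in CE Acetalax cells. In BT549 they were 97.2, 89.8, 57.3 and 93.0 CPM. CE minus parental was 0.83 (0.72 to 0.93) in MDA-MB468 and -0.76 (-0.82 to -0.69) in BT549 without drug, and 0.01 and 0.05 after Acetalax, the latter 0.28 with TMM scaling. The response to the drug therefore differed between CE and parental cells by about the amount of the control difference with the sign turned. This follows by arithmetic from the same libraries and is not a further result. For PLAUR the response was 2.01 in parental and 1.20 in CE MDA-MB468 cells, a difference between responses of -0.81 (-0.93 to -0.70). In BT549 it was -0.11 and 0.69 (-0.08 and 0.91 with TMM scaling), a difference of 0.81 (0.72 to 0.90) without that scaling. PLAU gave -0.87 (-1.03 to -0.70) in MDA-MB468 and 0.85 (0.78 to 0.92) in BT549. In CE MDA-MB468 the PLAU response itself was -0.04 with an interval from -0.15 to 0.07, and 0.05 with TMM scaling.

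Per length, PLAU over PLAUR depended on the exon length used: it was 0.952 in parental control MDA-MB468 and 2.40 in parental control BT549 with merged exons, and 0.3815 and 0.963 with the longest transcript.

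TFPI2, the Kunitz-type inhibitor (chr7:93514709-93520303, minus strand), was lower in CE cells of both lines, and higher with Acetalax in MDA-MB468. MDA-MB468 had 11.7 CPM in parental control, 51.4 in parental Acetalax, 2.85 in CE control and 12.3 in CE Acetalax cells. BT549 had 38.1, 42.6, 18.5 and 25.1 CPM. In MDA-MB468 the CE cells with drug thus reached the level of the parental cells without it. CE minus parental was -1.86 (-2.10 to -1.62) in MDA-MB468 and -1.03 (-1.14 to -0.91) in BT549. In BT549 the fold threshold was met narrowly, and the value with TMM scaling was -0.98. The Acetalax difference was 2.09 (1.97 to 2.22) in parental and 1.93 (1.69 to 2.17) in CE MDA-MB468, ratios of 4.41 and 4.30. In BT549 it was 0.16 and 0.43. GNGT1, which overlaps 44 exon bases of TFPI2 on the opposite strand, had at most 21 counts.

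CPA4, the carboxypeptidase (chr7:129932974-129964020, plus strand), was higher in CE cells of both lines and responded to Acetalax in opposite directions. In MDA-MB468 it had 51.1 CPM in parental control, 268 in parental Acetalax, 116 in CE control and 411 in CE Acetalax cells. In BT549 it had 9.23, 7.10, 51.8 and 31.3 CPM. CE minus parental was 1.17 (1.11 to 1.24) in MDA-MB468 and 2.43 (2.28 to 2.57) in BT549, ratios of 2.27 and 5.61. It was the gene of the set that passed the fold upward in both lines. With Acetalax it was 2.38 (2.32 to 2.44) in parental and 1.82 (1.78 to 1.86) in CE MDA-MB468. BT549 gave -0.36 (-0.56 to -0.15) in parental and -0.72 (-0.80 to -0.63) in CE cells. Per length CPA4 was the highest gene of the set in the MDA-MB468 CE control library, at 29.3 FPKM, with TIMP1 next at 28.9, and at 41.6 and 38.2 with the length of the longest transcript.

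ADAMTS1, the secreted proteoglycan protease (chr21:28208066-28217728, minus strand), was nearly absent from CE MDA-MB468 cells. Its level there was 60.6 CPM in parental control, 172 in parental Acetalax, 0.317 in CE control and 0.568 in CE Acetalax cells, the last pair from 14 and 27 counts. In BT549 it had 69.4, 211, 44.3 and 216 CPM. The control levels of the parental lines were alike, with BT549 1.15-fold above MDA-MB468. Among CE cells BT549 was 140-fold above (exact interval 83.2 to 256). CE minus parental was -6.22 (-6.52 to -5.93) in MDA-MB468, 191-fold lower with an exact interval from 114 to 350. This was the next to lowest of the 11135 differences, and the lowest with Acetalax, at -7.34. In BT549 it was -0.64 (-0.72 to -0.56), and 0.03 (-0.01 to 0.07) with Acetalax.

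ADAMTS1 was also the gene of the set with a drug response past the fold in both lines. Acetalax minus control was 1.498 (1.438 to 1.558) in parental MDA-MB468, 1.60 (1.54 to 1.66) in parental BT549 and 2.27 (2.21 to 2.33) in CE BT549. In CE MDA-MB468 the difference was 0.39 (-0.03 to 0.80), with an exact ratio of 1.79 (0.906 to 3.69), so that a response was not detectable at this depth. The response in CE minus that in parental cells was 0.67 (0.58 to 0.76) in BT549. In MDA-MB468 it was -1.11 (-1.53 to -0.70), but the added 0.5 CPM is above the CE control level and draws the CE difference toward 0. The exact interval of the CE ratio there, 0.906 to 3.69, contained the parental ratio of 2.84. The counts therefore do not separate the responses of CE and parental MDA-MB468.

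**Figure D3:**
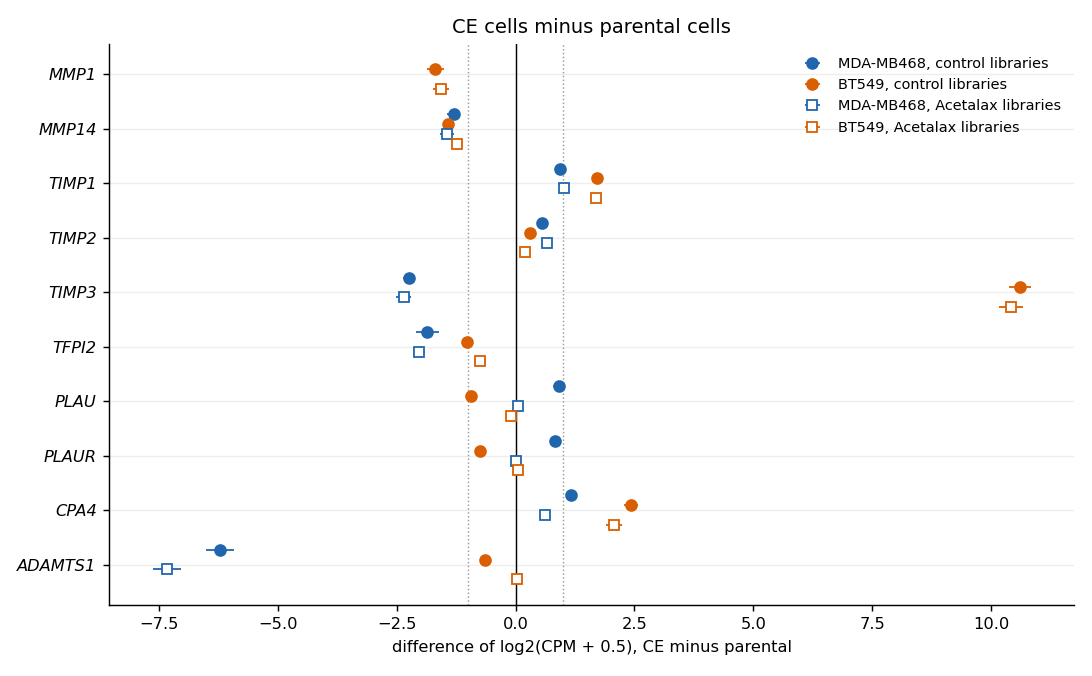
Difference of log2(CPM + 0.5), CE minus parental, for each gene in MDA-MB468 (blue) and BT549 (orange), without drug (filled circles) and with Acetalax (open squares), with bars for the 95% counting interval and dotted lines at the fold of 1 log2 unit. TIMP3 lies at 10.61 in BT549 and -2.25 in MDA-MB468, ADAMTS1 at -6.22 in MDA-MB468, and the squares of PLAU and PLAUR lie within 0.1 of 0.

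Across the set, 5 of 10 genes passed the fold between CE and parental control MDA-MB468 cells, 1 higher (CPA4) and 4 lower (MMP14, TIMP3, TFPI2 and ADAMTS1), where 2.60% of all 11135 genes did, 1.25% higher and 1.36% lower. In BT549 6 of 10 passed it, 3 higher (TIMP1, TIMP3 and CPA4) and 3 lower (MMP1, MMP14 and TFPI2), where 9.95% of genes did, 6.02% higher and 3.93% lower. All 10 genes were among the 11135. These values chose the set, so the shares are a description and nothing is read from their excess. TIMP1, TIMP2 and CPA4 were higher in CE cells of both lines and MMP14, TFPI2 and ADAMTS1 lower, 3 and 3 of 10, where 27.6% and 26.6% of all genes were. In both lines CPA4 was past the fold upward (0.233% of all genes) and MMP14 and TFPI2 downward (0.180%). PLAU, PLAUR and TIMP3 differed in sign between the lines. The median was 0.55 over the 9 genes with counts in MDA-MB468 and -0.70 over all 10 in BT549, with medians over all genes of 0.02 and -0.04.

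With Acetalax, 5 of 10 genes passed the fold in parental MDA-MB468 (TFPI2, PLAUR, CPA4 and ADAMTS1 higher, TIMP3 lower), where 6.07% of all genes did, 3.81% higher and 2.26% lower, and with TMM scaling, size factors or log2(FPKM + 1) TIMP3 was no longer among them. In CE MDA-MB468 4 of 10 did (TFPI2, PLAUR and CPA4 higher, TIMP3 lower), where 2.88% of all genes did, 1.50% higher and 1.38% lower. Parental BT549 had 1 of 10, ADAMTS1, higher, beside 2.25% of all genes, 1.06% higher and 1.19% lower. CE BT549 had 2 of 10, PLAU and ADAMTS1, both higher, beside 12.8% of all genes, 3.51% higher and 9.25% lower. TIMP1, TFPI2 and ADAMTS1 had a value above 0 in all 4 backgrounds, 3 of 10 where 12.7% of genes did, and 0 of 10 had a value below 0 in each, where 30.6% did. The interval of ADAMTS1 in CE MDA-MB468 spanned 0. With TMM scaling or size factors PLAU was also above 0 in all 4, and the shares of all genes were taken without such scaling. Each Acetalax difference shares a control library with the CE minus parental difference of its line, so the values are not independent.

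**Figure D4:**
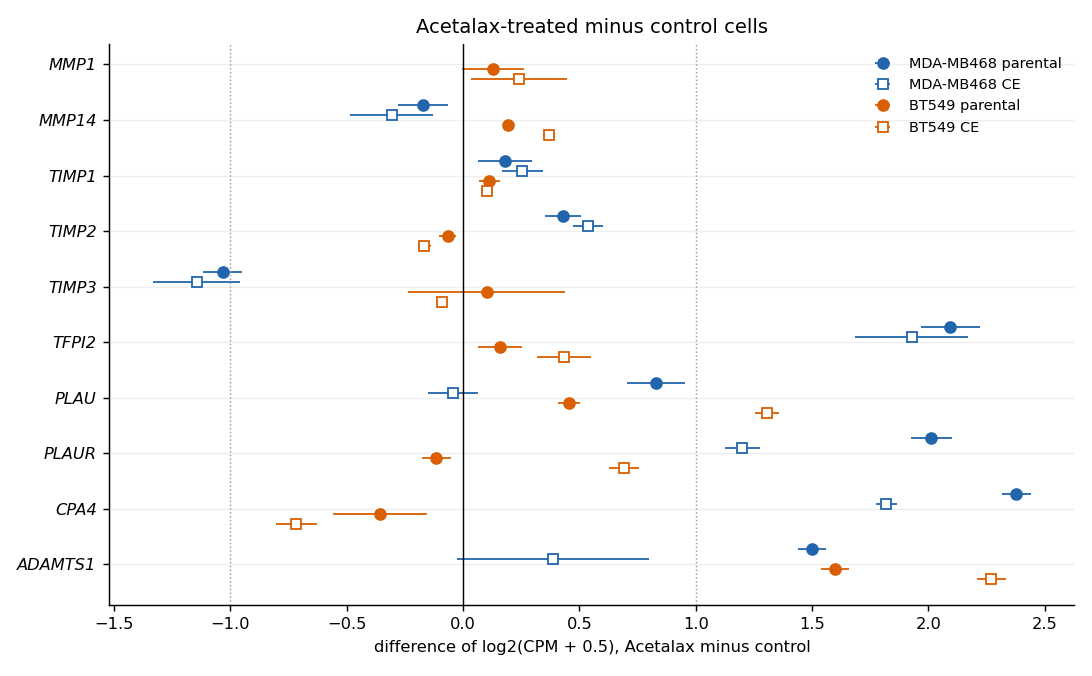
Difference of log2(CPM + 0.5), Acetalax minus control, for each gene in MDA-MB468 (blue) and BT549 (orange), parental (filled circles) and CE (open squares), with bars for the 95% counting interval and dotted lines at the fold of 1 log2 unit. TFPI2, PLAUR and CPA4 lie above 1 in both MDA-MB468 backgrounds and below it in BT549, and ADAMTS1 lies above 1 in all but CE MDA-MB468.

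Wider lists of proteases and inhibitors outside the set held 154 measured genes, 75 of them among the 11135. They were read from edgeR's quasi-likelihood fits of all genes, with the 2 lines as replicates. The fit of 1 Acetalax term over 4 backgrounds counts parental and CE cells of a line as separate pairs, although they share an origin, so its p-values may be too small. Between CE and parental control cells 0 of the 108 tested genes had an adjusted p under 0.05, and 13 had an unadjusted p under 0.05. Over all 18377 genes 0 were called (0.00%), with 610 at an unadjusted p under 0.05 and a smallest adjusted p of 0.947. DESeq2 called 2 of the listed genes, CTSL and PRSS23, beside 46 of all 34480 genes. The edgeR fit of all 8 libraries called 1, CTSL, beside 23 of all 19693. Of the 75 genes, 27 were higher and 6 lower in CE cells of both lines, beside 27.6% and 26.6% of all genes.

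The listed genes furthest higher in CE cells, by the smaller difference of the lines, were MMP2, PRSS23 and CTSL. MMP2, the gelatinase that MMP14 activates, had 0.843 and 5.87 CPM in parental and CE control MDA-MB468, 6.96-fold higher (exact interval 4.99 to 9.93). In BT549 it had 0 and 1950 counts, 506-fold higher against 3 counts, with an exact lower limit of 411.5. Both Acetalax-treated CE libraries were also above their parental libraries, at 4.06 against 0.679 CPM and 30.6 against 0.0230 CPM. The fibroblast markers named beside TIMP3 moved with MMP2 in control BT549 cells as well, and their part in it was not tested. PRSS23, a secreted serine protease, was higher by 1.22 in MDA-MB468 and 1.35 in BT549, and CTSL, the lysosomal cysteine protease cathepsin L, by 1.07 and 1.12. The furthest lower were ADAMTS4 (2.16 and 1.38 CPM in parental and CE control MDA-MB468, 102 and 50.6 in BT549), ADAMTS6 (-0.22 and -1.30, from 4 counts or fewer in MDA-MB468) and CSTB, the cathepsin inhibitor cystatin B (-0.13 and -0.77).

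Acetalax called 0 of 115 listed genes in parental cells (8 at an unadjusted p under 0.05) and 0 of 115 in CE cells (13), as it called 0.00% of all 19693 genes, with 1710 and 2311 at an unadjusted p under 0.05. DESeq2 called 75 and 289 over all genes, and 0 of the listed genes in either. In the fit of 1 Acetalax term over 4 backgrounds 5 of 115 were called, where 5.00% of all genes were, 4 of them higher (2.72% of all genes) and 1 lower (2.27%). MMP25, a membrane-anchored MMP, was higher by 2.10 ± 0.35 (log2 fold ± SE, adjusted p = 0.0362 by edgeR) at no more than 1.72 CPM, and was called without MDA-MB468 and without BT549 as well, when parental and CE cells of 1 line stood as the replicates. SERPINB2 (PAI-2), F3 (tissue factor, the protein that starts coagulation) and CST6 (cystatin M) were higher and LRP1, an endocytic receptor, was lower. SERPINB2 had 0 and 9 counts in control and Acetalax libraries of parental and of CE MDA-MB468, 1 and 0 in parental BT549 and 43 and 231 in CE BT549, and was not called without BT549. F3 had 48.1 and 833 CPM in parental control and Acetalax MDA-MB468 and 130 and 582 in CE cells, with at most 0.759 CPM in BT549. CST6 had at most 1 count in any BT549 library, and neither gene was called without MDA-MB468. LRP1 was lower in each of the 4 backgrounds, with differences of -0.53, -0.49, -0.51 and -0.70, but was called with neither line left out.

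For parental and CE cells taken apart, where no listed gene was called, the named genes are ordered by size. CTSK, ADAM17 and PRSS8 were the furthest higher with Acetalax in parental cells by the smaller difference of the lines, and LRP1, MMP15 and SERPINB1 the furthest lower. CTSK was at 0.23 and 0.63, and PRSS8 had at most 4 counts in BT549. In CE cells SERPINB8 (0.67 and 1.63) and F3 (2.16 and 0.53) were among the furthest higher, and LRP1, SERPINB1 and CTSO the furthest lower.

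Genes with the pattern most like each member were ranked by Pearson correlation of log2(CPM + 0.5) over the 8 libraries, centred within each line. The values describe libraries that the members share and carry no test. TIMP3 was closest to EFEMP1, a matrix glycoprotein, at r = 0.998, followed by INPP5K and TSPAN13. EFEMP1 had 60.9 and 27.8 CPM in parental and CE control MDA-MB468 and 21.8 and 319 in BT549. PLAU was closest to PMAIP1 (0.989), then RPGR and S100A11, and PLAUR to MAP3K14 (0.985), then EXT1 and CAB39. PMAIP1, which encodes the cell death protein NOXA, had 23.5, 44.1, 46.3 and 44.4 CPM in MDA-MB468 and 24.0, 37.3, 10.99 and 39.6 CPM in BT549, in the order of libraries used for PLAU.

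CPA4 was closest to UXS1 (0.996), then HOXC13 and MXRA7, and TFPI2 to FGFBP1 (0.972), then DUSP2 and TIAM2. ADAMTS1 was closest to EDIL3 (0.990), which had at most 0.371 CPM in MDA-MB468, then ATP1B3 and SFT2D1. MMP14 was closest to ZNF451 (0.987), then GCNT2 and TBP, and MMP1 to NEGR1 (0.999), then PTN and PSMC1. TIMP1 was closest to FIBCD1 (0.990), then YIF1B and ACADVL, and TIMP2 to CORO1A (0.989), then S100A16 and MGLL. Within the set, TIMP1 and MMP14 ran opposite to each other (r = -0.94), as did TIMP3 and MMP1 (r = -0.97, set by BT549 since MMP1 had 0 counts in MDA-MB468).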

How the data were processed

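RNA-seq of MDA-MB468 and BT549 gave 8 libraries, 1 per condition. Groups were taken from the sample labels. The authors aligned reads of 101 bases to hg19 with STAR (version 2.7.11b in the submitters' processing notes) and deposited raw counts per gene from its GeneCounts option, without normalization. The annotation and strand column are not given in the sources used here, so overlapping genes are uncertain.

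The table has 58154 rows for 55679 identifiers. Of these, 1392 were repeated, with the same counts except for 3, and each was used 1 time. No row lacked a gene, and 28 symbols written as dates were restored from the identifier. CPM used the total count of each library. FPKM used merged exon lengths from GENCODE on GRCh37. No library was a copy of another (smallest chi-square per degree of freedom 39.5). A count of 0 was given the limit of 3 counts. Intervals and limits cover counting error only.

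The members and lists were chosen with earlier results of these data known. Members have no test. Wider lists were tested with edgeR 4.0.16 in R 4.3.3 (TMM, filterByExpr, Benjamini-Hochberg, threshold 0.05), with cell line as covariate for CE (1 residual degree of freedom) or 4 background intercepts for Acetalax. A check on simulated data gave both lines the same change, so it cannot show how the fits perform where the lines respond differently. DESeq2 1.42.0 was an alternative, as were other scalings, pseudocounts of 0.1 and 1, and other filters. Genes named are all members, listed genes called by edgeR or, where none was called, the 3 that rose and the 3 that fell furthest by the smaller difference of the lines, the 3 genes most like each member, overlapping genes and ratio partners. A gene under this rule is left out of the text. The genes called by an alternative, SPARC, PGR, ESR1, ERBB2 and fibroblast markers, and those in the last part of the closing section were added after their values were seen. With 1 library per condition, p-values for CE in control libraries and for Acetalax in parental or CE cells measure the spread between the lines. Those of the Acetalax fit over 4 backgrounds also take in the spread between parental and CE cells of a line. With a line left out they measure only the latter.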

Additional observations from a re-analysis of the deposited data

Results flagged for a closer look

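TIMP3 differed between CE and parental control cells by -2.25 on the log2(CPM + 0.5) scale in MDA-MB468, and 10.61 in BT549. It is listed because the lines moved in opposite directions. With 1 library per condition, whether the lines differ was not tested.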

How the results depend on the processing

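With 1 library per condition no difference of a member has a replicate error, and depth limits only TIMP3 in parental BT549, MMP1 in MDA-MB468 and ADAMTS1 in CE MDA-MB468. Of 57 member differences, 37 moved by less than their counting interval with TMM scaling, 39 with size factors, 55 with a pseudocount of 0.1 or of 1 and 42 on log2(FPKM + 1). With either pseudocount the 2 that moved were the CE minus parental differences of TIMP3 in BT549 and ADAMTS1 in MDA-MB468. TIMP3 was at 12.22 with 0.1 and 9.73 with 1, and ADAMTS1 at -7.19 and -5.55. Their printed intervals therefore hold only for the 0.5 CPM added. PLAU in Acetalax-treated CE MDA-MB468 (-0.04 to 0.05 with TMM), TIMP2 (-0.17 to 0.05) and TIMP3 (-0.09 to 0.12) in CE BT549 changed sign near 0, the last pair outside their counting intervals. CE minus parental with Acetalax is not among the 57. The number of members past the fold stayed within 1.5 times in each alternative, although TIMP3 (Acetalax, MDA-MB468) and TFPI2 (CE, BT549) crossed the fold. Genes past the fold, CE minus parental in MDA-MB468, went from 290 to 124 on log2(FPKM + 1), 462 with the minimum mean set at 1 CPM and 580 without a filter. In BT549 they went from 1108 to 669 on log2(FPKM + 1) and 1702 without a filter. For Acetalax, log2(FPKM + 1) and no filter gave 373 and 1056 (from 676) in parental MDA-MB468, 161 and 560 (from 321) in CE MDA-MB468, and 92 and 426 (from 251) in parental BT549, and log2(FPKM + 1) gave 660 (from 1421) in CE BT549. Listed proteases called for CE went from 0 to 2 with DESeq2, of 46 over all genes, and 1 in the fit of all 8 libraries, of 23. With each gene of at least 1 count tested, Acetalax called 9 in parental cells, 12 in CE cells and 22 over 4 backgrounds (from 0, 0 and 5), of 643, 1080 and 3585 over all 37154 genes, and DESeq2 called 10 over 4 backgrounds, of 2684. Leaving out a cell line gave from 6 (without MDA-MB468, of 1752 over all genes) to 24 (without BT549, of 3080). The cause of these moves was not tested. The labels give no replicate numbers, so libraries were paired only through the line or background terms, which are already in each fit.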

Other observations

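Other proteases outside the set, named after their values were seen, had levels that differed by line. MMP7 (matrilysin, an epithelial MMP) had 33.7 and 46.8 CPM in parental control and Acetalax MDA-MB468, 0.227 and 0.252 in CE cells, and at most 0.0184 in BT549. In MDA-MB468 it was thus low in the same CE libraries as ADAMTS1. MMP9, the other gelatinase, had 0.118 and 4.33 CPM in parental and CE control BT549, and at most 0.0421 CPM in MDA-MB468. SERPINE2, a serpin that inhibits thrombin and urokinase, had 203 and 598 CPM in parental and CE control BT549 and 2.24 and 4.15 in MDA-MB468.

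Cathepsins, the proteases of the lysosome, were higher in CE control cells of both lines for 7 of the 12 that averaged at least 5 CPM and lower in both for 0, where 27.6% and 26.6% of all genes were. Their median difference was 0.51 and that of all genes 0.00. CTSD had 192 and 262 CPM in parental and CE control MDA-MB468 and 116 and 175 in BT549, and CTSH 75.6 and 102.5 and 2.63 and 16.6. edgeR called 0 of the 13 tested, 1 of them at an unadjusted p under 0.05, and DESeq2 called CTSL. Among the tissue kallikreins of MDA-MB468, KLK6 had 96.8 and 239.8 CPM in parental and CE control cells and KLK5 831 and 1073, whereas KLK10 had 47.4 and 31.4, with at most 0.0791 CPM in BT549. ADAMTS15 in BT549 had 2088 counts in parental control, 615 in parental Acetalax, 4277 in CE control and 437 in CE Acetalax cells, the lowest level being in the CE cells with drug.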
